A study of Arabidopsis thaliana with 9 samples.

Results

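The SAUR genes (SMALL AUXIN UPREGULATED RNA) of Arabidopsis thaliana encode short proteins, and many of their transcripts rise within minutes of auxin treatment. Members were taken from a list of 58 family genes by gene ID, and 47 of them stood in the deposited table of 16383 genes. The other 11, which are SAUR2, SAUR27, SAUR30, SAUR31, SAUR33, SAUR40, SAUR41, SAUR51, SAUR55, SAUR75 and SAUR76, were not analysed here. RNA was sequenced from the apical hook, the bent top of the stem of a seedling raised in darkness. Seedlings were 45 h old and kept at 22 °C, and about 50 hooks of about 2 mm, cut free of the cotyledons, were pooled for each sample. The genotypes were Col-0 (WT below), the mutant tmk1-1 (tmk1 below) and iaa32iaa34, a mutant in both IAA32 and IAA34. Each had 3 libraries, described by the labels as biological triplicates. TMK1 belongs to the receptor-like kinases at the cell surface, while IAA32 and IAA34 are Aux/IAA proteins without the degron of typical members of that family. No treatment was given, and no label says how the mutant alleles were made.

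Many SAUR proteins bind and inhibit phosphatases of the PP2C-D family, which otherwise take the activating phosphate off the plasma membrane proton pumps. Active pumps acidify the cell wall, and the wall then yields and the cell expands. In the hook, cells of the inner and outer side expand at different rates. SAUR17 has been described as keeping the hook and the cotyledons closed in darkness, and SAUR50 as opening them, both through the phosphatase PP2C-D1. SAUR32 and SAUR53 have also been studied in hooks, whereas the groups around SAUR19 and SAUR63 are best known for hypocotyl elongation.

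Of the listed genes 28 lie in 5 tandem clusters, named here by the start of their IDs, and 26 of these were measured. The AT1G29 cluster had 8 of 8 members in the table (SAUR61 to SAUR66, AT1G29490 and AT1G29510), the AT3G03 cluster 3 of 4 (SAUR26, SAUR28 and SAUR29) and the AT4G34 cluster 6 of 7 (SAUR1, SAUR3, SAUR4, SAUR5, SAUR49 and SAUR50). All 3 genes of the AT4G38 cluster (SAUR14, SAUR15 and SAUR16) and all 6 of the AT5G18 cluster (SAUR19 to SAUR24) were measured. Among the remaining 30 listed genes, called single loci, 21 were measured. Of these, 14 have no other member beside them, while SAUR6, SAUR7 and SAUR12 form a small group of their own and SAUR52, SAUR53, SAUR54 and SAUR70 each lie next to another member. AT1G29490 and AT1G29510 carry the same symbol in RefSeq and are therefore given by ID. SAUR genes are short, as 44 of the 47 measured members have 1 exon and their median exon length was 839 bp against 1819 bp over all measured genes.

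The tandem copies resemble each other to different degrees, which bears on how far their reads can be separated. Coding sequences of the 6 AT5G18 copies shared 87.7 to 95.2% of their bases over 15 pairs, with a median of 91.2%. In the AT3G03 cluster identity was 78.5 to 86.3%, in the AT1G29 cluster 46.6 to 89.5%, in the AT4G34 cluster 44.1 to 63.8% and in the AT4G38 cluster 54.4 to 62.4%. The highest identity in the family, 97%, was between SAUR62 of the AT1G29 cluster and the single locus SAUR75, which was not measured. The first 60 coding bases of the AT5G18 copies are printed below, 5′ to 3′, to show how little separates these genes, and capitals mark the 12 positions at which the copies differ. They were read from RefSeq TAIR10.1, at chr5:5963246-5963305 on the minus strand for SAUR19 and chr5:5966521-5966580 on the minus strand for SAUR20. SAUR21 is at chr5:5968527-5968586 on the plus strand and SAUR22 at chr5:5974904-5974963 on the minus strand. SAUR23 is at chr5:5976030-5976089 and SAUR24 at chr5:5983840-5983899, both on the plus strand.
SAUR19: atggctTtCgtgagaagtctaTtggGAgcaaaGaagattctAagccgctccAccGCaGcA
SAUR20: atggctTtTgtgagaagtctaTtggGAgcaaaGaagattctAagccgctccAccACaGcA
SAUR21: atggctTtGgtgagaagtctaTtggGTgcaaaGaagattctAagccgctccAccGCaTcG
SAUR22: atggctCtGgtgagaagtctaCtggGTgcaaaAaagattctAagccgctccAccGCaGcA
SAUR23: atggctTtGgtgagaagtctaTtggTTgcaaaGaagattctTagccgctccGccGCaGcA
SAUR24: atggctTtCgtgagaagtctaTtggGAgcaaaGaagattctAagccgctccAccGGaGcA

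Despite this likeness, most of each AT5G18 transcript is distinct at the scale of a read. Windows of 50 bases that also occur elsewhere in the genome made up 18.5% of SAUR19, 7.11% of SAUR24, 5.83% of SAUR20, 5.19% of SAUR21, 2.63% of SAUR23 and 0.573% of SAUR22. No window of 100 bases in these 6 genes occurred elsewhere. The AT1G29 cluster held the least separable measured members, with 33.9% of the 50-base windows of AT1G29510, 27.1% of those of SAUR63 and 23.2% of those of SAUR62 found elsewhere. At 100 bases these shares were still 21.6%, 18.9% and 8.57%. Values of these 3 genes and of SAUR19 are uncertain, since the read length and the treatment of reads with several matches were not given in the sources used here. SAUR6 and SAUR7 overlap on the same strand in RefSeq TAIR10.1 (chr2:9084628-9086029 and chr2:9083906-9084803), so their values are uncertain as well.

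Levels are in CPM, reads of a gene scaled by the total of its library, as deposited. Library totals were 10077093 to 13601488 reads, of which 88.6 to 90.6% fell on genes in the table, and 3 reads were worth 0.221 to 0.298 CPM. The targeted genes bore out the genotype labels where they could be measured. TMK1 was at 387, 468 and 469 CPM in WT, at 45.4, 29.0 and 26.8 CPM in tmk1 and at 477, 463 and 514 CPM in iaa32iaa34. IAA32 was at 55.3, 43.0 and 50.9 CPM in WT, 22.3, 25.4 and 28.5 CPM in tmk1 and 6.44, 10.5 and 8.48 CPM in iaa32iaa34, and IAA34 was not analysed here. Both mutants are compared with the same WT libraries below, so their differences from WT are not independent of each other.

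SAUR50, the cotyledon-opening member of the AT4G34 cluster, had the highest level of the family. It stood at 50.7, 56.6 and 89.8 CPM in WT, 53.3, 68.4 and 65.1 CPM in tmk1 and 59.2, 53.9 and 79.5 CPM in iaa32iaa34. The genotypes overlapped, and replicate 3 was the highest library in WT and in iaa32iaa34. Corrected for transcript length, SAUR50 reached 73.6 ± 23.6 CPM per kb of exon in WT (SD, n = 3). SAUR24, SAUR20, SAUR14 and SAUR19 followed at 53.4, 50.7, 50.3 and 50.2 CPM per kb in WT, differences far smaller than the SD of 11.9 to 15 CPM per kb within each of these genes. SAUR77, which encodes a protein described as binding ethylene receptors, had the lowest WT level, 0.59 CPM per kb.

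Within the AT4G34 cluster, levels per kb in WT spanned more than in any other cluster. Beside SAUR50, WT means were 35.0 CPM per kb for SAUR1, 15.5 for SAUR5, 15.3 for SAUR4, 5.73 for SAUR3 and 4.18 for SAUR49. The closely similar AT5G18 copies lay closer together, with WT means of 34.5 CPM per kb for SAUR21, 34.0 for SAUR22 and 30.5 for SAUR23 below the 3 copies already given. SAUR26, SAUR28 and SAUR29 of the AT3G03 cluster, a group known for responding to temperature, had 41.8, 39.2 and 33.1 CPM per kb in WT. In the AT4G38 cluster SAUR16 had 23.1 CPM per kb and SAUR15, the first SAUR gene studied in Arabidopsis, 13.2 CPM per kb. The AT1G29 cluster ran from 27.2 CPM per kb for SAUR66 through 25.5 for SAUR64, 22.2 for SAUR63, 21.3 for AT1G29510, 19.7 for SAUR62, 14.3 for AT1G29490 and 12.7 for SAUR65 down to 2.46 for SAUR61.

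Single loci were on the whole at lower levels per kb. SAUR78, a relative of SAUR77, led them with a WT mean of 31.4 CPM per kb, ahead of SAUR72 at 20, SAUR6 at 19.8 and SAUR10, known for stem growth, at 18.3. A middle group held SAUR35 at 16.7, SAUR9 at 15.2, SAUR8 at 11.9, SAUR25 at 9.64, SAUR52 at 8.19 and SAUR7 at 8.04 CPM per kb in WT. SAUR53 at 6.56, SAUR12 at 6.29, the senescence-associated SAUR36 at 4.48, SAUR17 at 4.23, SAUR32 at 4.22 and SAUR54 at 3.47 CPM per kb came next. SAUR34 at 1.85, SAUR71 at 1.82, SAUR70 at 1.75 and SAUR59 at 1.13 CPM per kb were near the bottom. Neighbours in this order overlapped over their WT libraries per kb, except SAUR70 with SAUR59 and SAUR59 with SAUR77.

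**Figure D1:**
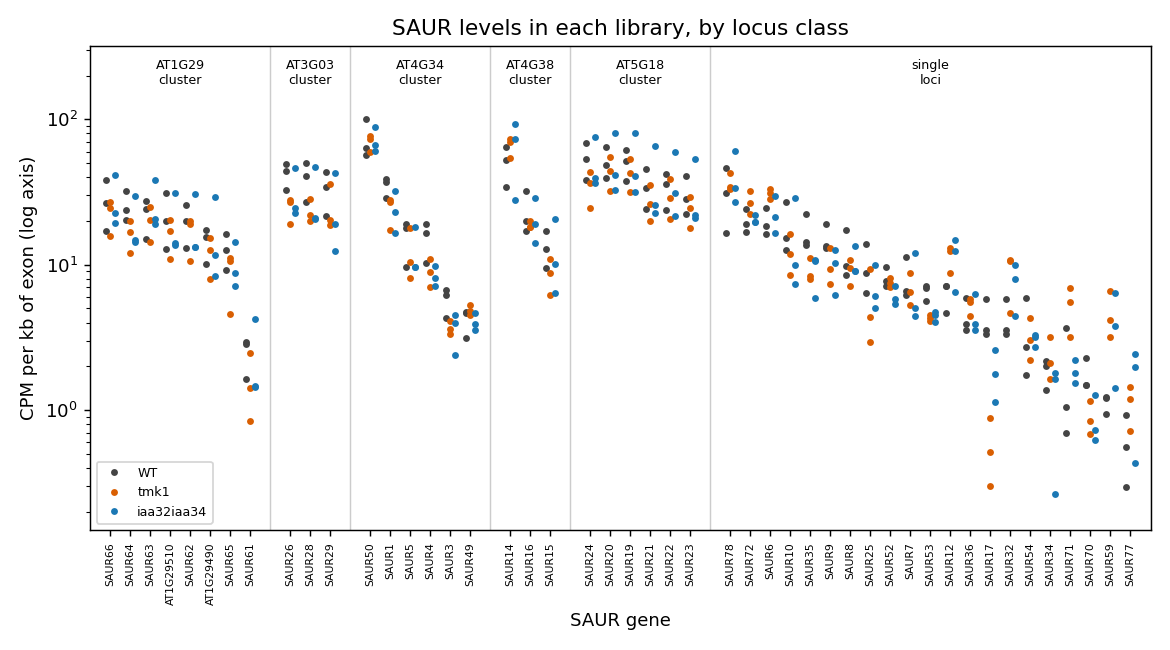
Level of each measured SAUR gene in each of the 9 libraries, in CPM per kb of exon on a log axis, grouped by genomic cluster and single loci and coloured by genotype. Points of 1 gene spread widely within a genotype, SAUR50 is highest at 73.6 CPM per kb in WT, and SAUR17 is set apart by its 3 low tmk1 points.

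The clearest pattern in the family was between libraries of the same genotype. For each member, the level in a library was expressed as the difference in log2(CPM + 1) from the mean of its 9 libraries, and the median over members was taken. For the 26 clustered genes this median was -0.23, 0.18 and 0.54 for WT replicates 1, 2 and 3, -0.58, 0.16 and -0.10 for tmk1, and -0.29, -0.33 and 0.72 for iaa32iaa34. Replicate 3 was thus the high library in WT and in iaa32iaa34, replicate 1 the low one in tmk1, and the 3 genotypes overlapped. In single loci the same medians were -0.04, -0.13 and 0.30 for WT, -0.06, 0.21 and 0.01 for tmk1, and -0.16, -0.32 and 0.32 for iaa32iaa34, a narrower range with the same high libraries in WT and iaa32iaa34. The median of the 1885 other measured genes of at most 1000 bp, a length class that 37 of the 47 members belong to, moved by far less. Their medians were 0.10, 0.00 and 0.16 for WT, -0.15, -0.04 and 0.01 for tmk1, and -0.13, 0.00 and 0.08 for iaa32iaa34. Their highest library in WT and in iaa32iaa34 and their lowest in tmk1 were nevertheless the same as those of the clustered genes. How far smaller groups of these short genes moved was not computed.

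The same libraries stood out when genes were counted. WT replicate 3 was the highest WT library for 24 of 26 clustered members, for 11 of 21 single loci and for 31.6% of all genes. Replicate 3 of iaa32iaa34 was the highest of its genotype for 24 of 26 clustered members, 16 of 21 single loci and 25.3% of all genes. For 24 of 26 clustered members tmk1 replicate 1 was the lowest tmk1 library, a share not computed over all genes. The median deviation of all genes was also lowest there, at -0.06, 0.01 and 0.00 in tmk1 replicates 1, 2 and 3. Summed over the AT5G18 copies, the level was 123, 168 and 217 CPM in WT, 97.7, 170 and 135 CPM in tmk1, and 133, 112 and 282 CPM in iaa32iaa34. The highest of these sums thus came from the same genotype as the second lowest. The median within-genotype SD on the log2(CPM + 1) scale was 0.48 for clustered members and 0.40 for single loci, beside 0.23 over all genes. In all, 41 of 47 members differed more than 2-fold between their highest and lowest library. No share over all genes was computed for this count, so it does not set the members apart from other genes.

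Markers of the Casparian strip, a barrier of the endodermis, also varied within genotypes. Of 8 listed, 7 were measured and none was at 0 in any library. Their summed level was 58.7, 185 and 528 CPM in WT, 53.2, 232 and 165 CPM in tmk1 and 85.7, 377 and 410 CPM in iaa32iaa34. Their libraries ranked as the clustered SAUR genes did in WT and tmk1, whereas in iaa32iaa34 replicate 2 was high for the markers and low for the SAUR genes. Their part in the SAUR pattern was not tested. In bulk RNA, fewer cells of a type and less RNA per cell cannot be told apart.

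**Figure D2:**
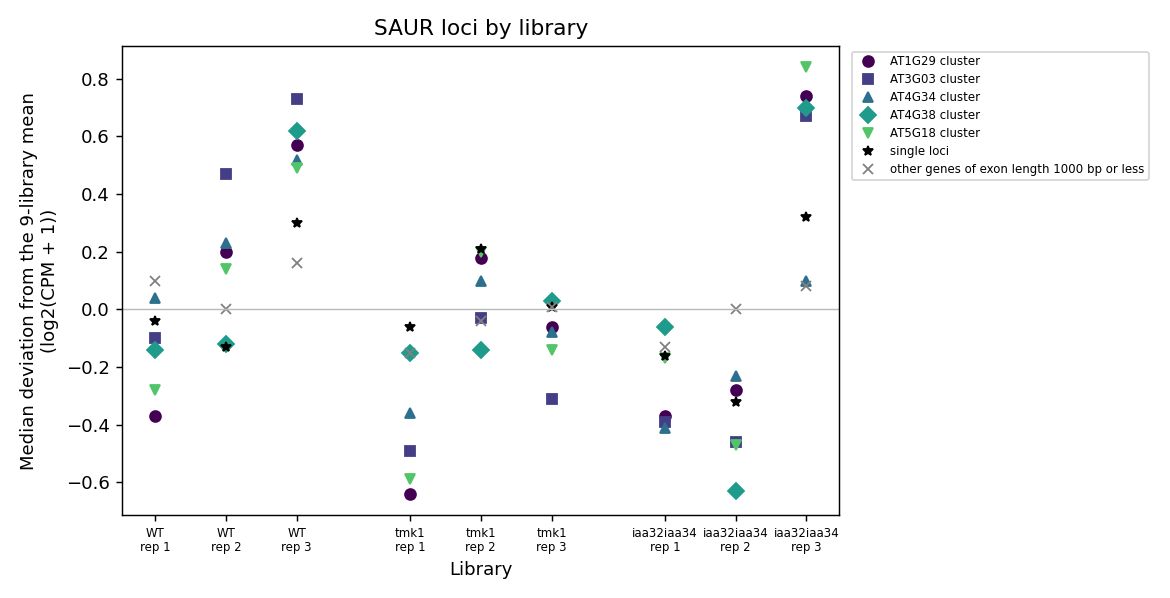
Median difference of each library from the 9-library mean, in log2(CPM + 1). Points are given for each SAUR cluster, the 21 single-locus SAUR genes and the 1885 other genes of at most 1000 bp. Clusters lie at 0.49 to 0.73 in WT replicate 3. In iaa32iaa34 replicate 3 they run from 0.10 for the AT4G34 cluster to 0.84. In tmk1 replicate 1 they run from -0.64 to -0.15, the latter for the AT4G38 cluster. The median of the other short genes stays near 0, from -0.15 to 0.16.

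In tmk1 hooks against WT, 1 of 47 SAUR genes passed the threshold, an adjusted p under 0.05 with limma over all genes, and that gene, SAUR17, fell. Over all genes 0.317% passed. Groups did not overlap for 9 members that were lower in tmk1 and 3 that were higher, which is 19.1% and 6.38% of the members beside 18.9% and 11.5% of all genes. At an unadjusted p under 0.05 there were 6 members lower and 6 higher, 12.8% each, beside 11.7% and 9.65% of all genes. No test was made of these shares.

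SAUR17 (AT4G09530), which keeps the dark hook closed, was at 3.36, 1.95 and 2.05 CPM in WT, 0.174, 0.298 and 0.515 CPM in tmk1, and 0.663, 1.51 and 1.03 CPM in iaa32iaa34. All 3 tmk1 libraries were below all others, and the iaa32iaa34 libraries lay between the other genotypes without overlap. Means were 2.45 ± 0.790 CPM in WT, 0.329 ± 0.173 CPM in tmk1 and 1.07 ± 0.424 CPM in iaa32iaa34 (SD, n = 3). The log2 fold change in tmk1 was -1.36 ± 0.23 (SE) with an adjusted p of 0.0485 (limma). These are few reads, as the tmk1 libraries held 2, 3 and 7 reads of SAUR17 and the WT libraries 37, 24 and 24, recovered here as CPM divided by the value of 1 read. Scaled by library totals, the tmk1 count of 12 reads was 0.141 times the WT count of 85 reads, with an exact 95% interval of 0.0699 to 0.259 that covers counting error only.
SAUR17 reached the 1 CPM that the table's filter asks of 3 libraries in 3 WT, 0 tmk1 and 2 iaa32iaa34 libraries. It thus entered the table through the genotypes in which it is high, and its presence there as a called member is no independent support for the difference.
The call held in 5 of 18 alternative settings and was lost without any 1 of the WT or tmk1 libraries. Over these settings log2 fold changes were -2.23 to -0.57 and adjusted p-values 0.0221 to 0.258 (limma). Of the 5, 1 used no filter and is the main fit again, since the filter removed 0 genes. The others were the 2 compared groups alone, the replicate block, and leaving out iaa32iaa34 replicate 1 or replicate 2. In that order they called 3.78%, 1.97%, 1.06% and 4.3% of all genes, beside 0.317% in the main fit. The call was thus kept in fits that also called a larger share of all genes. In iaa32iaa34 the log2 fold change of SAUR17 was -0.74 ± 0.23 with an adjusted p of 0.192 (limma), and the total of 36 reads was 0.443 times that of WT on the same scale, with an exact interval of 0.291 to 0.661. Between the mutants it was -0.62 ± 0.23 for tmk1 against iaa32iaa34, with an adjusted p of 0.554 (limma).

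The highest difference upward was at SAUR59 (AT3G60690). It was at 1.45, 1.46 and 1.11 CPM in WT, 7.91, 3.77 and 4.93 CPM in tmk1, and 7.57, 1.68 and 4.54 CPM in iaa32iaa34. Every library of either mutant was above every WT library, although iaa32iaa34 replicate 2 was close to WT. The log2 fold change was 1.43 ± 0.38 in tmk1 and 1.11 ± 0.38 in iaa32iaa34, with adjusted p-values of 0.0879 and 0.213 (limma). With the replicate number as a block, SAUR59 passed in tmk1 beside SAUR17, so that 2 members and 1.97% of all genes were called. The block treats same-numbered libraries as pairs, which no label states. Nuclear photosynthesis genes, markers of cotyledon tissue, ranked the libraries of each mutant in the same order as SAUR59. Of 18 listed, 17 were measured, all were above 0 in every library, and their summed level was 5528 to 11894 CPM in WT, 18805 to 25769 CPM in tmk1 and 9621 to 23586 CPM in iaa32iaa34. Their part in the result was not tested.

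Promoter sequence is shown for these 2 genes because they had the largest differences downward and upward. The 150 bases before the annotated transcript start in RefSeq TAIR10.1 are given 5′ to 3′ on the gene's strand, at chr4:6029818-6029967 (minus) for SAUR17 and chr3:22434714-22434863 (plus) for SAUR59. Capitals mark the palindrome CACGTG, the G-box to which PIF factors and HY5 bind, which stands at 2 places before SAUR59. None of the 4 searched motifs stands in the stretch before SAUR17.
SAUR17: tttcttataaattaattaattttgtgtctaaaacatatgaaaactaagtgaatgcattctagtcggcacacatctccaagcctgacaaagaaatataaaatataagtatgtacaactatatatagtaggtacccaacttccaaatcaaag
SAUR59: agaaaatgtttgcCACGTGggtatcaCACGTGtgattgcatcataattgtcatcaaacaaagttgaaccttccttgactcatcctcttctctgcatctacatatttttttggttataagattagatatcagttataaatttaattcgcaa

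Motifs were counted on both strands in the 250 bases before the start of all 58 listed members and of 27443 protein-coding nuclear genes. CACGTG was found in 1 member, SAUR59, or 1.72%, beside 6.49% of all genes. TGTCTC, the classical auxin response element, was in 7 members or 12.1% beside 10.9%, and TGTCGG, a stronger binding site of auxin response factors, in 2 members or 3.45% beside 4.16%. CATGCA, the core of the RY element, was in 9 members or 15.5% beside 8.43%. Of the 7 members with TGTCTC, 3 were in the AT1G29 cluster, 2 in the AT5G18 cluster (SAUR20 and SAUR22) and 1 in the AT4G38 cluster (SAUR15), and the last was the single locus SAUR7, with 3 matches. No match in this window says nothing of motifs further away, and a match is not a bound site.

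Direction differed between clusters and single loci in tmk1. Of 26 clustered members 24 had a log2 fold change below 0, with a median of -0.32, whereas single loci were split into 11 below and 10 above 0 with a median of -0.02. Over the 47 members 35, or 74.5%, were below 0 with a median of -0.24, beside 58.1% of all genes and a median of -0.06. Neither the family's median nor the contrast between clusters and single loci was tested. Both leaned on the libraries that stood apart: without WT replicate 3 the median of clustered members was -0.10 with 20 of 26 below 0, and without tmk1 replicate 1 it was -0.13, also with 20 of 26. The difference between the medians of clustered and single-locus members, -0.30 with all libraries, ranged from -0.47 to -0.17 when a WT or tmk1 library was left out. It was -0.53 when single loci beside another member were left out, since the 14 that remain had a median of 0.21. Taken for each library from the median deviations, the difference between clustered and single-locus members had a pooled SD of 0.269 within genotypes. The 17 measured photosynthesis markers of cotyledon tissue were all higher in tmk1, with a median log2 fold change of 1.39. Their summed level was 11894, 10338 and 5528 CPM in WT replicates 1, 2 and 3 and 25769, 18805 and 21468 CPM in tmk1. Clustered SAUR genes summed to 404, 542 and 709 CPM in WT and 341, 535 and 460 CPM in tmk1, the reverse order of libraries within each genotype. In iaa32iaa34 the markers summed to 23586, 9621 and 20609 CPM and the clustered genes to 421, 359 and 781 CPM, which are not in reverse order. Their part in the SAUR values was not tested.

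The AT3G03 cluster had the lowest median in tmk1, -0.67 over its 3 genes, and stayed between -0.90 and -0.48 without any 1 library. Its summed level was 55.4, 81.2 and 97.3 CPM in WT, 39.5, 63.8 and 47.6 CPM in tmk1, and 44.3, 37.6 and 93.1 CPM in iaa32iaa34. Genotypes overlapped in this sum, and only SAUR26 was apart. SAUR26 was at 23.1, 31.3 and 35.0 CPM in WT, 13.5, 20 and 19.1 CPM in tmk1, and 17.4, 16.1 and 33.1 CPM in iaa32iaa34. All tmk1 libraries were below all WT libraries, and iaa32iaa34 spanned both. Its log2 fold change in tmk1 was -0.73 ± 0.27 with an adjusted p of 0.163 (limma).

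In the AT4G34 cluster the tmk1 median was -0.41 with 5 of 6 genes below 0, and SAUR49 was the exception at 0.20. SAUR1 was at 21.1, 27.3 and 28.6 CPM in WT, 12.7, 20.3 and 19.9 CPM in tmk1, and 12.1, 16.8 and 23.5 CPM in iaa32iaa34. SAUR3 was at 4.91, 3.41 and 5.29 CPM in WT, 2.87, 3.27 and 2.65 CPM in tmk1, and 1.89, 3.55 and 3.17 CPM in iaa32iaa34. For both genes tmk1 lay below WT without overlap, by a narrow margin, and iaa32iaa34 overlapped with WT. Log2 fold changes in tmk1 were -0.53 ± 0.25 for SAUR1 and -0.48 ± 0.22 for SAUR3, with adjusted p-values of 0.246 and 0.236 (limma). SAUR50 differed by -0.04 ± 0.22 in tmk1 and -0.01 ± 0.22 in iaa32iaa34.

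The AT1G29 cluster had a tmk1 median of -0.29 with all 8 genes below 0, which became -0.06 without WT replicate 3 and -0.05 without tmk1 replicate 1. SAUR64 was its only member with groups apart, at 18.2, 21.4 and 29.0 CPM in WT, 10.9, 18.0 and 15.2 CPM in tmk1, and 12.8, 13.3 and 26.7 CPM in iaa32iaa34. The gap between WT and tmk1 was small, and iaa32iaa34 replicate 3 lay among the WT libraries. Its log2 fold change in tmk1 was -0.61 ± 0.29 with an adjusted p of 0.253 (limma). SAUR66, the highest member of this cluster, was at 16.6, 25.7 and 36.8 CPM in WT, 15.3, 26.1 and 23.7 CPM in tmk1, and 22.0, 18.8 and 39.9 CPM in iaa32iaa34, and its genotypes overlapped.

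The AT5G18 copies ranked the libraries of WT and of tmk1 alike, with a tmk1 median of -0.28 and all 6 below 0, and values of -0.09 without WT replicate 3 and -0.08 without tmk1 replicate 1. SAUR19, the best studied inhibitor of PP2C-D, was at 23.8, 32.8 and 38.7 CPM in WT, 19.9, 33.7 and 26.9 CPM in tmk1, and 25.7, 20 and 51.3 CPM in iaa32iaa34. SAUR24 was at 24.1, 33.5 and 42.8 CPM in WT, 15.3, 27.3 and 22.9 CPM in tmk1, and 24.9, 22.9 and 47.1 CPM in iaa32iaa34. Genotypes overlapped for all 6 copies.
In the AT4G38 cluster the tmk1 median was -0.23, and it was 0.02 without WT replicate 3. SAUR14 stood at 20, 30.4 and 37.4 CPM in WT, 31.7, 42.7 and 40.7 CPM in tmk1, and 42.8, 16.1 and 54.4 CPM in iaa32iaa34, with overlap between all genotypes.

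**Figure D3:**
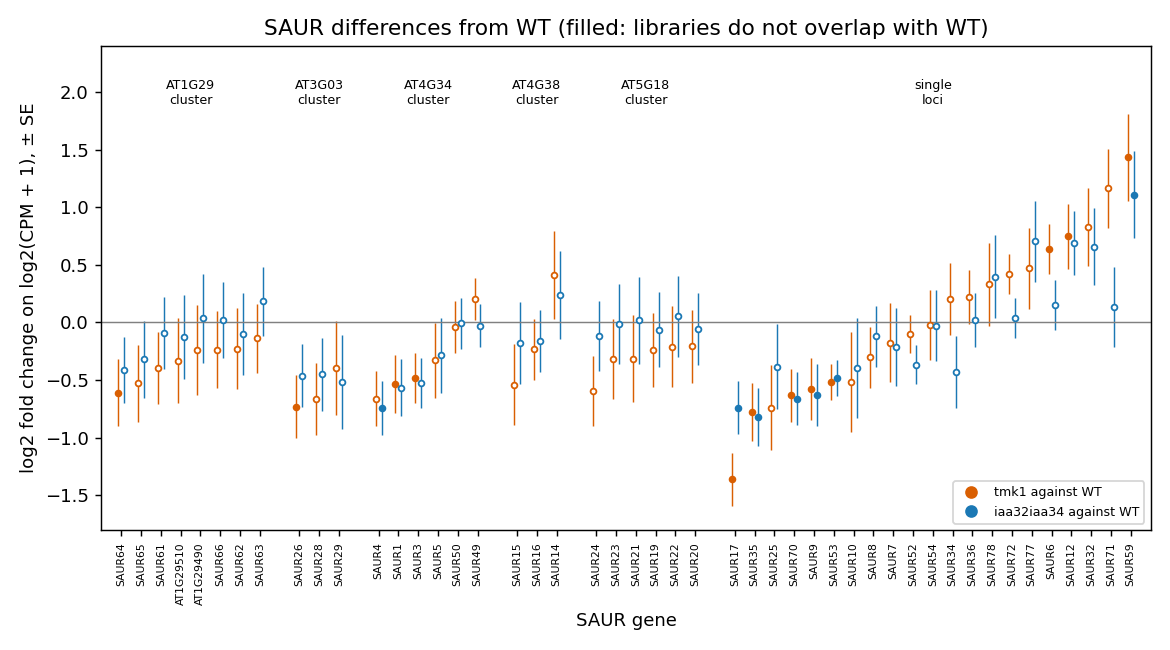
Log2 fold change of each measured SAUR gene in tmk1 and in iaa32iaa34 against WT on the log2(CPM + 1) scale, with the SE from the model over 9 libraries. Filled points mark groups that do not overlap with WT. Clustered members lie mostly below 0 with wide errors, and the single loci run from -1.36 at SAUR17 to 1.43 at SAUR59 in tmk1.

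The libraries of 6 members separated from WT in both mutants, and all 6 are single loci. SAUR9, SAUR17, SAUR35, SAUR53 and SAUR70 were on the lower side, 10.6% of the measured members beside 7.67% of all genes. SAUR59 was on the higher side, 2.13% beside 3.19%. Whether single loci differ in this from clustered members was not tested, and the shared WT libraries link the comparisons.

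SAUR35 was at 13.3, 12.7 and 20.7 CPM in WT, 7.82, 7.44 and 10.3 CPM in tmk1, and 5.49, 9.84 and 10.0 CPM in iaa32iaa34. All mutant libraries were below the lowest WT library. Log2 fold changes were -0.78 ± 0.25 in tmk1 and -0.82 ± 0.25 in iaa32iaa34, with adjusted p-values of 0.126 and 0.184 (limma). SAUR53, studied for its part in hook development, was at 7.73, 7.55 and 6.06 CPM in WT, 4.43, 4.86 and 4.63 CPM in tmk1, and 4.36, 4.88 and 5.14 CPM in iaa32iaa34. The mutants were alike in range and below WT, and libraries of each mutant lay close together. SAUR53 differed from WT by -0.52 ± 0.16 in tmk1 and -0.48 ± 0.16 in iaa32iaa34 on the log2 scale, with adjusted p-values of 0.110 and 0.197 (limma).

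SAUR9, an inhibitor of PP2C-D phosphatases, was at 12.6, 12.3 and 17.8 CPM in WT, 6.95, 12.2 and 8.82 CPM in tmk1, and 5.78, 9.67 and 11.8 CPM in iaa32iaa34. The highest mutant libraries nearly touched the lowest WT library. Log2 fold changes were -0.58 ± 0.27 and -0.63 ± 0.27, with adjusted p-values of 0.243 and 0.280 (limma). SAUR70 was at 2.27, 2.27 and 3.50 CPM in WT, 1.04, 1.29 and 1.76 CPM in tmk1, and 0.947, 1.95 and 1.11 CPM in iaa32iaa34. WT was the highest genotype without overlap. Log2 fold changes of SAUR70 were -0.63 ± 0.23 and -0.66 ± 0.23, with adjusted p-values of 0.155 and 0.216 (limma).

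SAUR6 and SAUR12, neighbours on chromosome 2, were the other members higher in tmk1 without overlap. SAUR6 was at 22.7, 26.1 and 34.6 CPM in WT, 39.6, 46.3 and 43.9 CPM in tmk1, and 29.7, 23.0 and 41.4 CPM in iaa32iaa34. SAUR12 was at 5.91, 3.82 and 5.89 CPM in WT, 10.3, 7.24 and 10.7 CPM in tmk1, and 10.2, 5.41 and 12.3 CPM in iaa32iaa34. In iaa32iaa34, replicate 2 was within the WT range for both genes, and so was replicate 1 for SAUR6. Log2 fold changes in tmk1 were 0.64 ± 0.22 for SAUR6 and 0.75 ± 0.28 for SAUR12, with adjusted p-values of 0.136 and 0.164 (limma), and SAUR7, on the other side of SAUR6, was at -0.17 in tmk1.

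**Figure D4:**
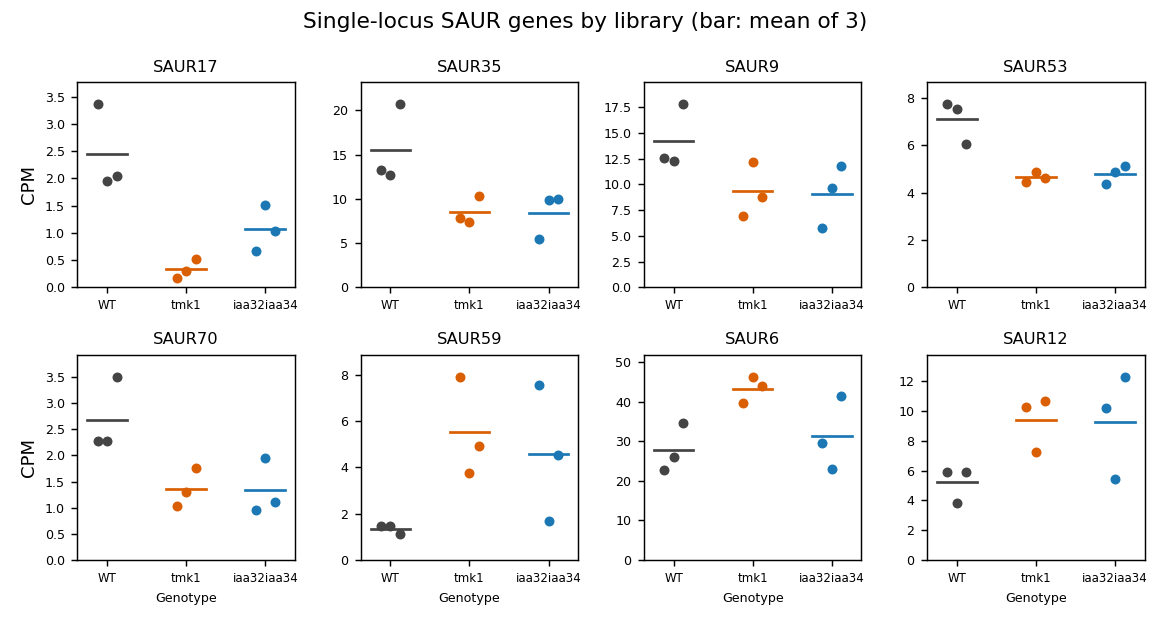
CPM of 8 single-locus SAUR genes in each library, with points for libraries and a bar for the mean of 3, on axes that start at 0. SAUR17 falls from 2.45 CPM in WT to 0.329 CPM in tmk1, SAUR35, SAUR9, SAUR53 and SAUR70 are lower in both mutants without overlap with WT, and SAUR59 is higher in both.

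The single loci SAUR32, which has been studied in hooks, and SAUR78 overlapped between genotypes. SAUR32 was at 5.18, 3.17 and 2.99 CPM in WT, 9.65, 4.17 and 9.48 CPM in tmk1, and 3.98, 7.18 and 8.91 CPM in iaa32iaa34. One library of each mutant lay below the highest WT library. Its log2 fold changes were 0.83 ± 0.34 and 0.66 ± 0.34, with adjusted p-values of 0.190 and 0.356 (limma). SAUR78 was at 19.8, 37.6 and 56.0 CPM in WT, 39.7, 51.6 and 41.5 CPM in tmk1, and 40.6, 32.8 and 73.4 CPM in iaa32iaa34, a spread within WT that covered all of tmk1.

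In iaa32iaa34 against WT, 0 of 47 SAUR genes passed with limma, beside 0.153% of all genes. Groups did not overlap for 6 members that were lower and 1 that was higher, or 12.8% and 2.13%, beside 14.6% and 6.54% of all genes. At an unadjusted p under 0.05 there were 8 lower and 2 higher members, or 17.0% and 4.26%, beside 10.4% and 6.17% of all genes. SAUR4 was the only gene apart in iaa32iaa34 alone, at 7.46, 14 and 12 CPM in WT, 5.13, 8.04 and 6.54 CPM in tmk1, and 5.21, 5.94 and 7.20 CPM in iaa32iaa34. WT replicate 1 lay just above the highest iaa32iaa34 library and below 1 tmk1 library. Its log2 fold change was -0.74 ± 0.24 in iaa32iaa34 with an adjusted p of 0.193 and -0.66 ± 0.24 in tmk1 with an adjusted p of 0.152 (limma).

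The family as a whole had no steady direction in iaa32iaa34. Of 47 members 32, or 68.1%, were below 0 beside 58.2% of all genes, with a median of -0.12 beside -0.06. The median was -0.11 for clustered members and -0.12 for single loci. Without iaa32iaa34 replicate 3 all 26 clustered members were below 0 with a median of -0.44, and without replicate 2 only 9 of 26 were, with a median of 0.07. Leaving out WT replicate 3 turned the sign as well, to 0.08 with 10 of 26 below 0. Without iaa32iaa34 replicate 2, 3 members (SAUR12, SAUR59 and SAUR77) passed upward, in a fit that called 3.94% of all genes. Only the AT3G03 cluster kept all of its measured genes below 0 without any 1 library, with medians of -0.82 to -0.26 and -0.46 with all libraries.

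Between the mutants, 0 of 47 members passed for tmk1 against iaa32iaa34 with limma, beside 0.0549% of all genes, and at an unadjusted p under 0.05 there was 1 member lower and there were 2 higher, or 2.13% and 4.26% beside 3.94% and 4.18% of all genes. Groups were apart for SAUR17, lower in tmk1, and for SAUR71 and SAUR72, higher in tmk1, which is 2.13% and 4.26% of members beside 6.16% and 7.1% of all genes. SAUR71 was at 3.00, 0.568 and 0.853 CPM in WT, 5.65, 2.58 and 4.48 CPM in tmk1, and 1.80, 1.24 and 1.46 CPM in iaa32iaa34. WT replicate 1 stood apart from the other WT libraries and overlapped with tmk1. SAUR71 differed by 1.03 ± 0.35 between the mutants with an adjusted p of 0.512 and by 1.16 ± 0.35 from WT in tmk1 with an adjusted p of 0.109 (limma). SAUR72, another PP2C-D inhibitor, was at 23.7, 16.4 and 18.6 CPM in WT, 31.4, 21.9 and 26.1 CPM in tmk1, and 19.2, 19.3 and 21.4 CPM in iaa32iaa34, a difference of 0.38 ± 0.17 between the mutants with an adjusted p of 0.610 (limma). With 27 of 47 members, or 57.4%, below 0 beside 47.9% of all genes, the median of the members was -0.07, and it was 0.19 with 6 of 47 members below 0 without iaa32iaa34 replicate 3.

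Genes that act with the SAUR proteins are given for context. All 9 PP2C-D phosphatases were measured, and none passed in either mutant, with 4 below and 5 above 0 in each comparison with WT. The smallest p in tmk1 was that of AT5G66080, at 71.7 ± 4.20 CPM in WT and 41.9 ± 5.72 CPM in tmk1 (SD, n = 3), a log2 fold change of -0.77 with an adjusted p of 0.0697 (limma), and in iaa32iaa34 that of AT5G02760, at -0.69 with an adjusted p of 0.327 (limma). Of 11 proton pump genes 6 were measured and none passed. HA3 had the smallest p of them in both mutants, at 45.4 ± 7.39 CPM in WT, 79.8 ± 23.6 CPM in tmk1 and 66.2 ± 12.2 CPM in iaa32iaa34, with adjusted p-values of 0.113 and 0.292 (limma). Among 12 transcription factors known to act on SAUR genes 11 were measured and none passed. PIL6 (PIF5) had the smallest p in tmk1, with a log2 fold change of 0.73 and an adjusted p of 0.128 (limma). PIF4 had the smallest p in iaa32iaa34, with a log2 fold change of 0.59 and an adjusted p of 0.238 (limma). All 7 markers of dark-grown hooks, HLS1 and PIN3 among them, were measured in every library, and none passed in either mutant.

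The nearest measured genes on either side of each cluster, and those inside it, are given beside the members, and none passed in either mutant. VDD, a B3-type transcription factor gene and the nearest measured gene before the AT5G18 cluster, was at 7.55, 6.98 and 7.60 CPM in WT, 2.87, 3.57 and 3.16 CPM in tmk1, and 2.65, 4.52 and 2.83 CPM in iaa32iaa34. Unlike the 6 copies beside it, VDD varied little within WT and was lower in both mutants without overlap, by log2 fold changes of -1.0 and -0.98 with adjusted p-values of 0.0628 and 0.123 (limma). AT5G18090, on the other side of these copies, was also lower in both mutants without overlap, at -0.81 and -0.80. Before the AT4G38 cluster, AT4G38810 was at 20.5, 20.4 and 13.8 CPM in WT, 48.8, 31.8 and 47.5 CPM in tmk1, and 53.4, 38.0 and 43.5 CPM in iaa32iaa34, higher in both mutants without overlap. Its adjusted p-values were 0.0609 and 0.0733 (limma). AT4G38890, after that cluster, differed by 0.10 in tmk1 and -0.29 in iaa32iaa34. Beside the AT4G34 cluster, MRL1 was higher in tmk1 without overlap, at 1.14 with an adjusted p of 0.0945 (limma), and was at 0.52 in iaa32iaa34. ASE2 was at 0.33 and -0.10, also without overlap in tmk1. AT1G29418, before the AT1G29 cluster, was lower in both mutants without overlap, at -0.44 and -0.57 with adjusted p-values of 0.151 and 0.160 (limma). AT1G29520, after it, was at -0.44 and 0.31, and AT1G29465 and AT1G29470 inside it were at -0.11 and -0.30 in tmk1 and 0.13 and -0.40 in iaa32iaa34. Of these, AT1G29470 was lower in both mutants without overlap. EDA30 and AT3G03855 beside the AT3G03 cluster differed by -0.01 and -0.04 in tmk1 and by 0.02 and 0.15 in iaa32iaa34. Between the AT5G18 copies, AT5G18040 was at 0.08 and 0.12, AT5G18065 at -0.12 and -0.33 and DRT101 at -0.40 and -0.31. Like VDD, both AT5G18065 and DRT101 were lower in both mutants without overlap.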

How the data were processed

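The labels' protocols give a strand-specific kit and an input of 1 µg total RNA. The submitters' processing notes name HISAT and HTSeq but no version of either. The authors deposited 1 table of CPM values (reads per gene scaled to the library total), so levels depend on depth and composition but are not corrected for length. Genome build, annotation, read length and strand setting of the counting were not given in the sources used here, the table holds no coordinates, and reads of overlapping or antisense genes cannot be told apart. Every CPM was a whole multiple of 1 step to within 0.01 read, from which library totals were read.

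Members, cluster classes, gene lists and the rule for named genes were chosen with earlier results of these data known. All measured members are named with their WT level, and values per library are given for those past the threshold, those with groups apart from WT and the highest of each cluster. SAUR32, SAUR71, SAUR72, SAUR77, SAUR28, SAUR29 and the other genes with values were added for their roles or after their values were seen.

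CPM was transformed as log2(CPM + 1), which understates changes of low genes, and all 9 libraries entered 1 model with genotype as group (limma 3.58.1 under R 4.3.3, with lmFit and trended eBayes). Requiring 1 CPM or more in 3 or more libraries removed 0 genes. The table therefore holds no gene below that level, and a low member could be in it through 1 genotype alone. Tests were two-sided with Benjamini-Hochberg adjustment over 16383 genes and a threshold of 0.05. The fit was tested on simulated data without shifts shared by the genes of a library. Only genes above the WT level of SAUR17 were changed in it. It therefore does not show how the fit behaves for SAUR17 or with the spread between libraries seen here. With 3 against 3 libraries the smallest p of an exact permutation test is 0.1, so none was used for single genes. SDs of CPM are over 3 libraries and do not show the counting error of a few reads. "Apart" or "not overlapping" means that all 3 libraries of a group lie on 1 side of all 3 of the other.

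Symbols, exon lengths, coordinates and sequences are those of RefSeq TAIR10.1, in which 16240 of the table's IDs were found, and window matches and coding identity were computed with Biopython 1.88 and Python 3.11.15. Alternatives were other pseudocounts, filters, scalings, groups in the fit, a replicate block and leaving out each library, and 2 more were chosen after seeing the data. No label says that a replicate number marks a shared batch, and correlations of the libraries' deviations did not settle it. Same-numbered libraries of WT and tmk1 correlated at 0.528, 0.129 and 0.140. Among differently numbered pairs, WT replicate 3 with tmk1 replicate 2 was at 0.304. The rest of those pairs were at -0.461 to 0.015. With iaa32iaa34, same-numbered pairs were at 0.348, -0.398 and 0.459 for WT and at 0.364, -0.141 and 0.123 for tmk1. Differently numbered pairs with iaa32iaa34 ran from -0.628 to 0.469.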

Additional observations from a re-analysis of the deposited data

How the results depend on the processing

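The count of SAUR genes called in tmk1 was 1, and it was 0 with a pseudocount of 0.25 or of 4, with a mean CPM of at least 3 (40 members tested, SAUR17 not among them), with median-of-ratios scaling and with trimmed-mean scaling. It was also 0 in the 2 settings chosen after seeing the data, libraries centred on other short genes and WT replicate 3 and iaa32iaa34 replicate 3 left out together. It was 2 (SAUR17 and SAUR59) when only the 2 compared groups were fitted and with the replicate block. Those fits called 3.78% and 1.97% of all genes, beside 0.317% in the main fit. Leaving out 1 library gave 0 to 2, with 0 for every WT and tmk1 library and iaa32iaa34 replicate 3, and 2 without iaa32iaa34 replicate 2. The last of these fits called 4.3% of all genes. In iaa32iaa34 the count was 0, and 0 to 3 with 1 library left out, where 3 came without its replicate 2. That fit called 3.94% of all genes. The replicate block changed no other SAUR call, and with it 323 genes passed in tmk1 against 52 without. No called value changed its sign. Family medians moved by less than the pooled SD between libraries, 0.393, yet ranged from -0.445 to -0.088 in tmk1 and from -0.443 to 0.065 in iaa32iaa34 without 1 library. Median-of-ratios scaling moved the median of all genes in tmk1 from -0.063 to -0.004 and that of the members from -0.240 to -0.182, and 26 in place of 32 members were then below 0 in iaa32iaa34. Centring on other short genes moved the members' median to -0.112 in tmk1, with 32 of 47 below 0. In iaa32iaa34 that setting gave a median of -0.024, with 26 of 47 below 0. Count tests on recovered reads were planned and were not run, because a separate estimate of the value of 1 read was not accepted for 3 of the 9 libraries. The read numbers and library totals given above rest on the value of 1 read found here. Depth limits SAUR17 most, with 2 reads in its lowest library, and SAUR34 and SAUR77 at 3 and 4.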
